A study of Mus musculus with 15 samples.

Results

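The outer and the inner layer of the CA3 field were compared within newborn mice that lack doublecortin. The CA3 field belongs to the pyramidal cell layer of the hippocampus, and Dcx codes for doublecortin, which binds microtubules in neurons on the move. In Dcx knockout (KO) mice the CA3 pyramidal layer is split into layers that lie apart, so that neurons of 1 field sit at different depths. Pyramidal neurons are generated along the ventricle, migrate outward past earlier ones, and switch off progenitor genes while they switch on genes of synapses and excitability.

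The comparison used 10 of the 15 arrays of the study. Of these, 5 held the outer layer (called external in the labels) and 5 the inner layer (internal) of the same 5 Dcx KO animals at postnatal day 0. The remaining 5 arrays held the CA3 layer of wild-type (WT) mice of that age, entered no test here, and are given only for the targeted gene and where they help to read a level. Tissue was taken by laser microdissection. RNA was extracted for each brain from pooled dissected pieces, and the amplified, biotinylated RNA was read on Illumina bead arrays of the whole genome. Which exons the KO allele lacks, the sex of the animals and the number of sections per brain are not given in the sources used here. Pairs of layers were formed by animal number. Animals 3 and 4 gave 4 arrays and animals 1, 2 and 5 gave 6, and these sets are described apart because animals 3 and 4 were low in muscle and bone transcripts. All values are normalized log2 signals of 1 probe per gene, so that a difference of 1 is a 2-fold difference, and differences are outer minus inner. A gene is called when limma, with the animal as a block, gave a Benjamini-Hochberg adjusted p under 0.05 over all 11998 probes kept.

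Between 11017 and 11976 probes were detected on the outer arrays and between 11539 and 11903 on the inner arrays, and pairs of arrays correlated with r between 0.94 and 0.993 across probes. Dcx itself was at 10.54, 10.63, 10.60, 10.74 and 10.56 on the outer arrays and 10.39, 10.51, 10.61, 10.60 and 10.36 on the inner arrays of animals 1 to 5, against 11.76 to 12.07 in WT. All 10 KO arrays lay below all WT arrays, and the layers differed by 0.12 ± 0.07 (SE, limma adjusted p = 0.262). A further Dcx probe was below detection, and the place of the probes relative to the deleted part is not given. Of 10 genes listed as CA3 field markers, 9 were detected on at least 1 array. Of 5 dentate granule neuron markers, 4 were below detection on all outer and 3 on all inner arrays, and of 5 choroid plexus and ependyma markers, 3 on all outer and 4 on all inner arrays.

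The 14 leading genes of each direction are those of largest difference among the genes called over 5 animals and also in animals 3 and 4, with 1 sign in 5 of 5 animals. Tacr3, the receptor of neurokinin B, and Chodl, a membrane lectin, led the genes higher in the outer layer. Rasgrp1, which activates Ras in response to calcium and diacylglycerol, and Cckbr, a receptor of cholecystokinin and gastrin, led the genes lower there. The promoters of these 4 genes are printed because they open the lists in each direction, from 250 bases before to 50 bases after the annotated start (RefSeq, mouse build GRCm38.p6, 5′ to 3′ on the strand of the gene). Capitals mark the E-box motifs CAGCTG and CAGATG, both of the CANNTG form that basic helix-loop-helix proteins such as Neurod1 bind. Both motifs were searched on both strands.
Tacr3 (chr3:134828757-134829056, + strand): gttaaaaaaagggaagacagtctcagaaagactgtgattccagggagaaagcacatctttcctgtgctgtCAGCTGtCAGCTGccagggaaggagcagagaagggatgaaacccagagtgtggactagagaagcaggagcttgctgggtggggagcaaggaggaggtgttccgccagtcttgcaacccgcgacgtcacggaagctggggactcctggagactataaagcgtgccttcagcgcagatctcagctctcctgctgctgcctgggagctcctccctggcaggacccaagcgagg
Chodl (chr16:78930698-78930997, + strand): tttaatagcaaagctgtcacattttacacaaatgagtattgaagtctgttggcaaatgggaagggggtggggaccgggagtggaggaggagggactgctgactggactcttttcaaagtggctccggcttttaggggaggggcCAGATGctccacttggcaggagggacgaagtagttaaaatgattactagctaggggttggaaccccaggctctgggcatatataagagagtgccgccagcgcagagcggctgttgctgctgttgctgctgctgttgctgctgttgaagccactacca
Rasgrp1 (chr2:117342828-117343127, − strand): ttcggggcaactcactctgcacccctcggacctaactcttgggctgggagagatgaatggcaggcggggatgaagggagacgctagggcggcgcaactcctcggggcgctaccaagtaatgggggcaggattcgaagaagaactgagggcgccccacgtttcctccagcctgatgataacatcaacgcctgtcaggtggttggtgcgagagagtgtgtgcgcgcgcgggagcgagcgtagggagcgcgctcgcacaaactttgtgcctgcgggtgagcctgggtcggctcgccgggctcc
Cckbr (chr7:105425481-105425780, + strand): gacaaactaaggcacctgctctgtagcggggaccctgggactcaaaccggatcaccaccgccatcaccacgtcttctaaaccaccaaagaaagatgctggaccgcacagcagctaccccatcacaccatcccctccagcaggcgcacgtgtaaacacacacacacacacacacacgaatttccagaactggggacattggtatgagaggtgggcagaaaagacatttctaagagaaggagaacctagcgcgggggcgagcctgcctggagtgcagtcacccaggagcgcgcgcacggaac
The Tacr3 window held 2 copies of CAGCTG and the Chodl window 1 copy of CAGATG, and neither motif was in the windows of Rasgrp1 and Cckbr. Other CANNTG forms were neither marked nor counted. Such forms are present in the windows of Rasgrp1 (CAGGTG) and Cckbr (CACCTG and CACGTG), so those windows are not free of E-boxes. CAGCTG was in 19.7% of 61 windows of genes higher, and in 18.9% of 159 windows of genes lower in the outer layer (those called over 5 animals and in animals 3 and 4 with 1 sign in 5 of 5 animals), against 14.6% of the 6863 windows matched among all genes tested. CAGATG was in 9.84% and 11.3% of these sets, against 11.2% of all. These shares describe letters in the windows and were not tested.

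Tacr3 had log2 signals of 7.14, 7.66, 7.99, 7.93 and 8.34 in the outer layers of animals 1 to 5, against 5.94, 5.63, 6.40, 6.10 and 6.26 in the inner layers. Every outer array lay above every inner array, as in 3.78% of all genes. The difference was 1.74 ± 0.13 (SE), a 3.35-fold higher signal (limma adjusted p = 0.000441). Chodl was at 9.32, 8.85, 8.82, 9.02 and 7.65 in outer layers and 7.86, 6.49, 7.41, 7.26 and 6.32 in inner layers, a difference of 1.66 ± 0.15. Its levels overlapped between the groups because both layers of animal 5 were lowest, and each animal had the higher value in its outer layer. Cldn3, a claudin of tight junctions, was at 7.03, 7.26, 7.33, 7.18 and 7.54 in outer layers, against 5.49, 5.72, 5.82, 5.37 and 5.80 in inner layers. The 5 outer values stood clear of the inner ones by more than the spread within either layer, and the difference was 1.63 ± 0.08 (3.08-fold).

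Igfbpl1, a member of the insulin-like growth factor binding family that is found in newborn neurons, had signals of 11.36, 11.20, 11.40, 11.51 and 11.55 in outer layers and 9.80, 9.33, 10.01, 10.14 and 10.31 in inner layers (difference 1.48 ± 0.10). Insm1, a zinc finger factor of neuronal progenitors, was at 9.54, 9.15, 9.58, 9.48 and 9.58 in outer layers and 8.06, 8.01, 8.15, 8.20 and 7.87 in inner layers (1.41 ± 0.10). Rnd2, which acts in the radial migration of newborn neurons, was at 10.90, 10.99, 11.11, 11.51 and 11.09 in outer layers and 9.19, 9.89, 10.08, 9.95 and 9.73 in inner layers (1.36 ± 0.11). In these 3 genes of young neurons all outer arrays lay above all inner arrays, as in 3.78% of all genes. The leading genes were picked for large differences of 1 sign, so little overlap follows from that choice. Calb2, the calcium-binding protein calretinin, was at 11.11 to 11.82 in outer layers and 10.01 to 10.32 in inner layers (1.26 ± 0.10). Nr2f2, the nuclear receptor COUP-TFII, was at 7.28, 6.52, 6.55, 7.18 and 6.86 in outer layers and 6.06, 5.95, 5.01, 5.72 and 5.95 in inner layers (1.14 ± 0.14), with its smallest difference, 0.57, in animal 2. Ptx3, a pentraxin of innate immunity (1.41 ± 0.15), Emilin2, a matrix glycoprotein (1.27 ± 0.09), Ssbp2, a partner of LIM-domain-binding factors (1.33 ± 0.10), Kcp, a secreted modulator of bone morphogenetic protein signals (1.17 ± 0.13), Syt9, a synaptotagmin (1.15 ± 0.11), and Mb21d2 (1.37 ± 0.13) complete the 14 leading genes of this direction. Of these 14, Ptx3 was detected on 3 and Mb21d2 on 4 of the 5 inner arrays, and the other 12 on all 10 arrays. With median scaling Ptx3 (0.61, adjusted p = 0.0581) and Nr2f2 (0.61, adjusted p = 0.0543) were not called. In the deposited signals with no further step Ptx3 (0.66, adjusted p = 0.205), Nr2f2 (0.66, adjusted p = 0.203), Mb21d2 (0.78, adjusted p = 0.062) and Syt9 (0.77, adjusted p = 0.0678) were not called.

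Among the genes lower in the outer layer, Rasgrp1 had signals of 6.43, 6.84, 7.06, 6.42 and 6.81 in outer layers, against 8.98, 9.36, 9.56, 9.13 and 9.37 in inner layers. The difference of −2.57 ± 0.07 was 5.92-fold (limma adjusted p = 8.28e-06) and lay between −2.50 in animal 3 and −2.70 in animal 4. Cckbr was at 6.72, 5.84, 6.11, 6.18 and 6.34 in outer layers and 9.13, 7.83, 8.36, 8.66 and 8.85 in inner layers (−2.32 ± 0.09, 5.01-fold). Both genes kept all outer arrays below all inner arrays, as did 6.05% of all genes. Cdh13, a cadherin without a cytoplasmic tail that is held by a lipid anchor, was at 6.27, 6.51, 6.24, 6.60 and 6.91 in outer layers, against 8.44, 8.84, 8.35, 8.33 and 8.80 in inner layers (−2.04 ± 0.10). Fxyd7, a brain regulator of the sodium pump, was at 4.93 to 5.13 in outer layers, where 2 of 5 arrays detected it, and at 6.72 to 7.28 in inner layers, where all 5 did (difference of −1.998 ± 0.10). Crabp1, which binds retinoic acid in the cytoplasm, was at 6.63, 6.17, 6.94, 6.23 and 5.86 in outer layers and 8.45, 8.16, 8.58, 7.91 and 8.15 in inner layers (−1.88 ± 0.11).

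Hcrtr1, an orexin receptor, ran within narrow bands of 6.19 to 6.38 in outer layers and 8.01 to 8.33 in inner layers (−1.85 ± 0.09). Slc6a7, the brain proline transporter, did so too, with 7.59 to 7.94 in outer layers and 9.38 to 9.72 in inner layers (−1.72 ± 0.09). Spock3, a testican of the extracellular matrix, was at 6.42 to 7.03 in outer layers and 8.12 to 8.98 in inner layers (−1.88 ± 0.10). In these 3 genes all outer arrays lay below all inner arrays, as in 6.05% of all genes. Lgi3, a secreted leucine-rich protein (−1.63 ± 0.12), Cpne6, a calcium-sensing copine of dendrites (−1.57 ± 0.19), and Gpr83, a G protein-coupled receptor (−1.71 ± 0.24), were lower in 5 of 5 animals. Gpr83 was not called with median scaling (−0.75, adjusted p = 0.072) or in the deposited signals with no further step (−0.70, adjusted p = 0.146). H2bc4, a histone H2B gene, differed by −1.56 ± 0.12, and since histone H2B genes are near copies of each other the gene behind this signal is uncertain.

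Fxyd5 and Mmp9 were less even, and Fxyd5 was detected on 3 of 5 outer arrays. Fxyd5, another pump regulator that also affects cell adhesion, was at 5.43, 4.30, 4.54, 4.86 and 5.63 in outer layers and 7.23, 8.42, 6.004, 6.60 and 6.54 in inner layers (−2.01 ± 0.40, adjusted p = 0.0137), with differences of −4.11 in animal 2 and −0.91 in animal 5. Mmp9, a matrix protease that neutrophils and bone-resorbing cells store or secrete, was at 6.66, 6.13, 5.58, 5.48 and 5.99 in outer layers and 9.05, 10.55, 6.43, 6.13 and 7.81 in inner layers (−2.02 ± 0.49, adjusted p = 0.0272). In animals 3 and 4 Mmp9 differed by −0.85 and −0.65, against a mean of −2.87 in animals 1, 2 and 5. Its call was lost without animal 1 (−1.93, adjusted p = 0.0869) and without animal 5 (−2.08, adjusted p = 0.066). It was also lost with median scaling (−1.30, adjusted p = 0.121), without the animal as a block (adjusted p = 0.118) and with a trended robust variance (adjusted p = 0.103). Fxyd5 lost its call with median scaling (−0.93, adjusted p = 0.0513) and with a trended robust variance (adjusted p = 0.0631).

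**Figure D1:**
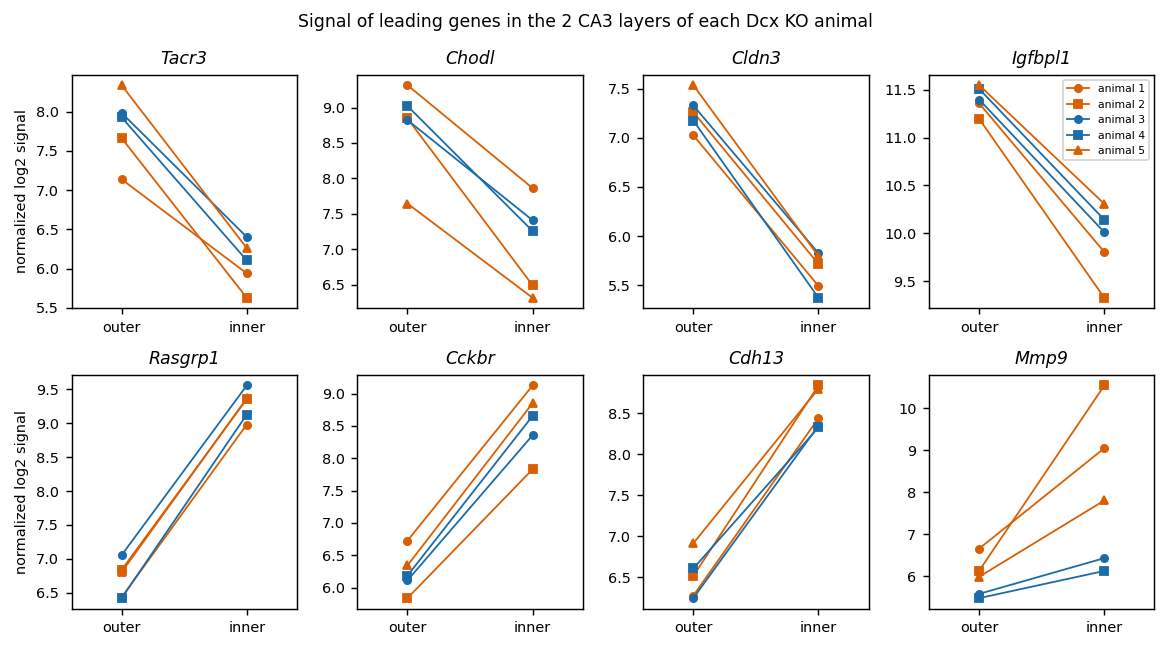
Normalized log2 signal of 4 genes higher and 4 genes lower in the outer layer, with the outer layer on the left and the inner layer on the right of each panel. Each line joins the layers of 1 animal (orange for animals 1, 2 and 5, blue for animals 3 and 4), and the Rasgrp1 lines run from 6.42 to 7.06 in outer layers up to 8.98 to 9.56 in inner layers while the Mmp9 lines of animals 3 and 4 stay at or below 6.43.

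Markers of other cells stood high on some of these arrays. The mean log2 signal of 11 skeletal muscle genes was 4.82, 5.02, 5.08, 5.52 and 4.92 on the outer arrays of animals 1 to 5, against 7.66, 8.51, 4.97, 4.95 and 7.18 on the inner arrays. The inner arrays of animals 1, 2 and 5 stood apart from the other 7 KO arrays. Among 11 bone and cartilage genes the means were 5.81, 4.77, 4.49, 4.58 and 4.46 on outer arrays and 7.46, 8.15, 4.54, 4.49 and 6.58 on inner arrays, so that outer array 1 was raised as well. For 10 meningeal fibroblast genes they were 5.88, 5.40, 5.17, 5.18 and 5.18 on outer arrays and 7.33, 7.52, 5.26, 5.17 and 6.13 on inner arrays. The same 3 inner arrays were again the highest. Over 10 neutrophil and myeloid genes the inner arrays of animals 1 and 2 (6.53 and 6.75) stood above the other 8 KO arrays, which lay at 4.45 to 5.00.

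The muscle, bone and meningeal medians of the layer difference lay between −0.10 and 0.45 in animals 3 and 4 and at −1.24 or lower in animals 1, 2 and 5. Of 10 muscle genes tested, 0 were called higher and 1 lower (over all genes 9.62% and 11.5%). Their median difference was −2.19 over 5 animals and 0.25 in animals 3 and 4. Of 8 bone and cartilage genes, 0 were called by limma and 7 were lower at an unadjusted p under 0.05, with medians of −2.09 and 0.08. Of 7 meningeal fibroblast genes, 3 were called lower (Bgn −1.92, Igf2 −1.48 and Foxc1 −0.47), with medians of −1.48 and −0.07. Leaving out animal 2 brought the 5-animal medians to −1.23 for bone and cartilage and −0.91 for meningeal fibroblasts. Of 3 neutrophil and myeloid genes, 2 were called lower (Mmp9 and S100a8, −1.95), with medians of −1.95 and −0.75, and Lyz2 (−0.70) was not called. S100a8 was detected on 2 of 5 outer arrays. Of 7 microglia genes, 4 were called lower, with medians of −0.82 and −0.19. Laptm5, a lysosomal membrane protein of blood-derived cells, differed by −1.57 over 5 animals and by −0.66 and −0.37 in animals 3 and 4. Of 4 red blood cell genes, 2 were called lower (Alas2 −0.79 and Hba-a1 −0.47), with medians of −0.67 and −0.27, the first of which was −0.41 without animal 2. Hba-a1 has a near-identical copy in the genome, so its signal may stem from either. Of the keratinocyte list only Krt10 was tested (−0.23, not called). The part of these cells in the layer differences was not tested, and fewer cells of a type and less RNA per cell cannot be told apart in such bulk samples.

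**Figure D2:**
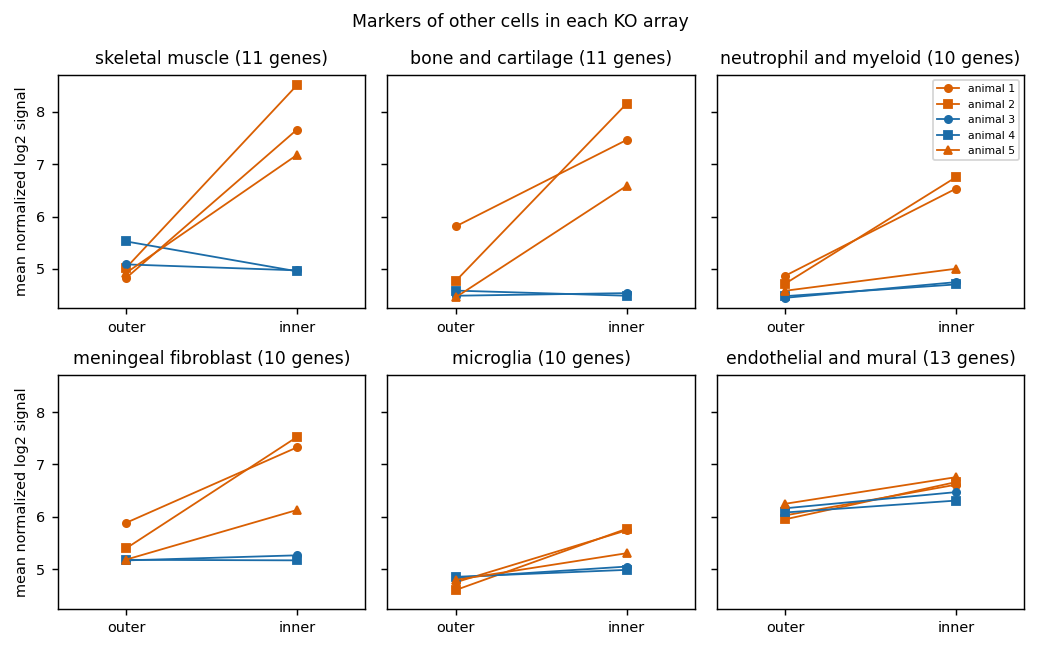
Mean normalized log2 signal of 6 marker lists on each KO array, with the outer layer on the left and the inner layer on the right; each line is 1 animal. Muscle and bone means lie between 4.49 and 5.52 on all arrays of animals 3 and 4 (blue) and reach 8.51 and 8.15 on the inner array of animal 2, while the endothelial lines of all 5 animals run close together.

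Across all genes, 1770 of 8392 (21.1%) were called over 5 animals, 807 of them higher (9.62%) and 963 lower (11.5%) in the outer layer, and 3079 had an unadjusted p under 0.05. The median difference over all genes was 0.026, and 0.0115 in animals 3 and 4. At 2-fold or more, 22 of the called genes were higher and 121 lower. All 5 outer arrays lay above all 5 inner arrays for 317 genes (3.78%) and below them for 508 (6.05%). With arrays shifted to a common median the number of calls was 103, without the animal as a block 705 and without animal 1 990. In the authors' own scaled table, where 59.5% of the calls were higher against 45.6% here, it was 1518. Of the called genes, 448 had another kept probe, and in 34 of these another probe had the opposite direction.

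Most called differences were also present in animals 3 and 4, whose muscle and bone signals were low in both layers. Of the 807 genes called higher, 795 were higher in both animals and 558 had at least 50% of the 5-animal difference in each. Of the 963 called lower, 939 were lower in both and 720 had at least 50% of the size in each. Since these 2 animals are part of the 5, this is a description. Under 25% of the 5-animal size, or the opposite sign, was seen in the mean of animals 3 and 4 for 3 genes called higher and 18 called lower. Of the 22 genes at least 2-fold higher, 0 were under 25% and 20 had at least 50% in each animal. Of the 121 at least 2-fold lower, 85 had at least 50% in each and 13 were under 25%.

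The calls of animals 1, 2 and 5 share no array with animals 3 and 4. In animals 1, 2 and 5 alone, 877 genes were called (10.5%). Of the 303 called higher there (3.61%), 257 (84.8%) were higher in both animal 3 and animal 4, and of the 574 called lower (6.84%), 467 (81.4%) were lower in both. Among genes not called, 50.6% of the 4270 with a higher mean and 50.6% of the 3245 with a lower mean had that direction in both animals. These shares were not tested, since genes are not independent. The median over the 303 genes was 0.68 in animals 1, 2 and 5, whose values chose the genes, and 0.44 in animals 3 and 4. Over the 574 genes it was −0.92 in the first set and −0.50 in animals 3 and 4. Across all genes the differences of the sets correlated with r = 0.599 and shared the sign in 73.7%, a description across genes that are not independent. Single animals correlated with r from 0.434 (animals 2 and 4) to 0.728 (animals 1 and 2), and animals 3 and 4 with r = 0.599. The SD of the differences over genes was 0.34 and 0.35 in animals 3 and 4, against 0.50, 0.60 and 0.45 in animals 1, 2 and 5.

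A fit to animals 3 and 4 alone called 323 genes (3.85%), 99 higher (1.18%) and 224 lower (2.67%), and 1871 had an unadjusted p under 0.05. Both fits called 85 genes higher and 217 lower, and 0 in opposite directions. Of the 85, 82 had the sign of the call in 5 of 5 animals, and of the 217, 212. Among genes of at least 2-fold, 20 of 22 higher and 86 of 121 lower ones were called in both. On simulated data the fits to 2 and to 3 animals gave more false calls than their nominal rate, which bears on the 323 and the 877 calls and on the counts of genes called in both fits. With 2 animals, a spread is borrowed largely from other genes, and the number of calls ranged between 57 and 7720 with the normalization, so signs and sizes in each animal are given here rather than this count alone.

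The 10 genes called over 5 animals with the largest difference and under 25% of it in animals 3 and 4 were all lower in the outer layer. They are Serpinf1, a secreted inhibitor of vessel growth, Acta1, the actin of skeletal muscle, Col6a1, a collagen chain, Bgn, a matrix proteoglycan of bone and meninges, Stfa1, a protease inhibitor of myeloid cells, Cxcl12, a chemokine, Lgals1, a galectin, Fcgrt, the neonatal antibody receptor, Ahnak, a scaffold protein, and Ccn4, a matrix protein of bone. Serpinf1 was at 7.24, 6.13, 4.52, 4.56 and 5.03 in outer layers and 9.75, 10.63, 5.06, 4.86 and 8.03 in inner layers. Acta1 was at 6.80, 6.98, 7.06, 7.13 and 6.68 in outer layers and 10.11, 11.10, 7.80, 7.11 and 9.34 in inner layers. Both were high on the inner arrays of animals 1, 2 and 5, the arrays with high muscle and bone means. Their differences over 5 animals were −2.17 ± 0.57 (adjusted p = 0.0354) and −2.16 ± 0.57 (adjusted p = 0.0349), and in animals 3 and 4 Serpinf1 differed by −0.53 and −0.30 and Acta1 by −0.74 and 0.03. The other 8 ranged from −1.95 (Col6a1) to −1.32 (Ccn4) over 5 animals and from −0.46 (Bgn) to −0.15 (Ccn4) as the mean of animals 3 and 4. Each of the 10 calls was lost without animal 1 and without animal 5, and those of 9, all but Bgn, without animal 2. Stfa1 also lost its call without animal 3. Serpinf1 then stood at −2.08, −1.96 and −1.59 without animals 1, 5 and 2, and Ccn4 at −1.14, −1.29 and −0.95. Ccn4 was below detection on all outer arrays and was detected on 3 of 5 inner arrays. Its outer signal was at least 1.64-fold lower as a mean over 5 animals. That bound does not hold in each animal, since animals 3 and 4 differed by −0.06 and −0.25. All 10 calls were also lost with median scaling, with no filter on dim probes and with a trended robust variance. Without the animal as a block all but that of Cxcl12 were lost.

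**Figure D3:**
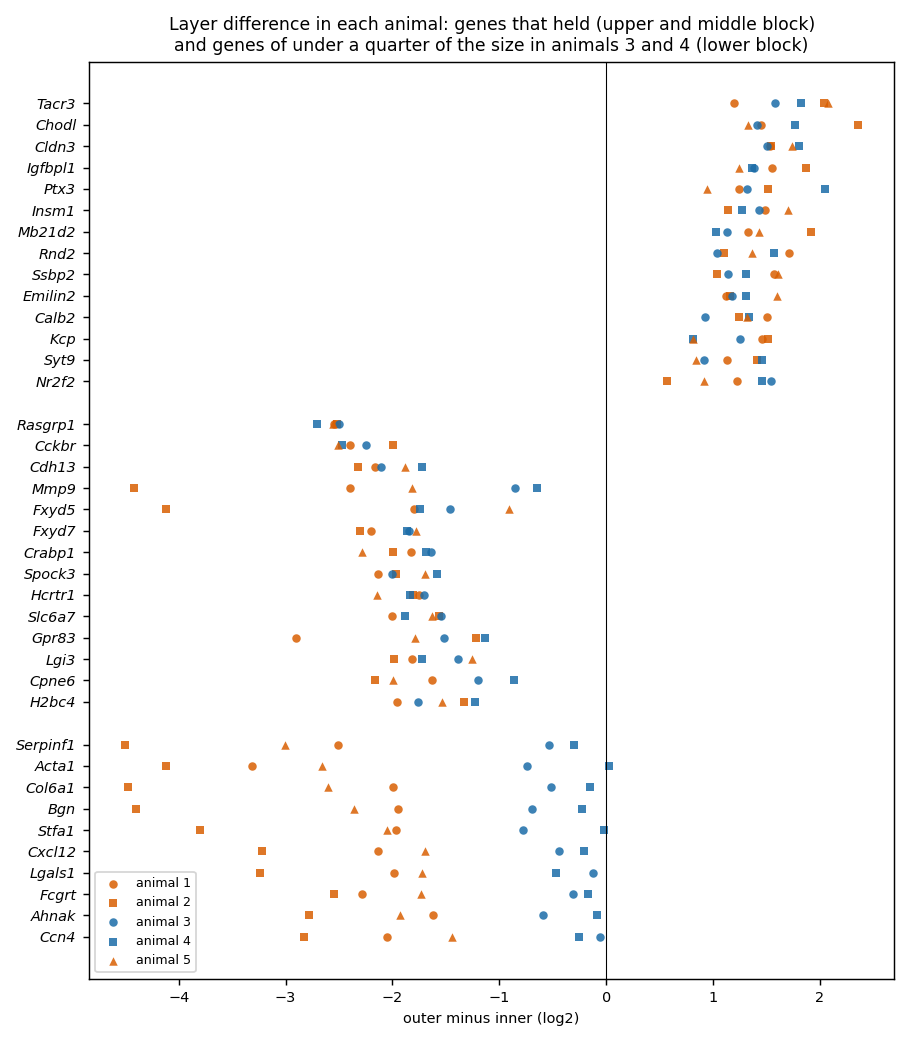
Outer minus inner difference (log2) of single genes in each animal (orange for animals 1, 2 and 5, blue for animals 3 and 4). In the upper and middle blocks, which hold the 14 leading genes of each direction, the 5 animals lie on 1 side of 0; in the lower block the blue points lie between −0.78 and 0.03 while the orange points reach −4.50.

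The difference between the sets of animals was tested directly for each gene, and 2 of 8392 (0.0238%) were called, with 557 at an unadjusted p under 0.05. Both are muscle genes, of the kind that chose the sets, so their values are a description. Myl1, a myosin light chain, was at 4.93, 5.34, 5.15, 7.09 and 4.58 in outer layers and 10.90, 11.38, 4.31, 4.58 and 9.77 in inner layers. Myh8, the perinatal myosin heavy chain, was at 5.63, 6.40, 6.60, 7.42 and 6.26 in outer layers and 10.12, 11.53, 6.18, 6.27 and 9.89 in inner layers. In both, the inner arrays of animals 1, 2 and 5 were highest, and among the outer arrays that of animal 4. Their layer difference in animals 3 and 4 exceeded that in animals 1, 2 and 5 by 7.41 and 5.20 (limma adjusted p = 0.0125 and 0.0307). Without animal 1 neither was called (adjusted p = 0.0613 and 0.117), and Myh8 was not called without animal 3 (0.339) or animal 4 (0.775). Without the animal as a block neither was called (adjusted p = 0.0579 and 0.0652). Myl1 also lost its call with median scaling (4.71, adjusted p = 0.0524), and Myh8 with no filter (adjusted p = 0.0625), with normalization over the 10 KO arrays (adjusted p = 0.051) and with probe means (4.39, adjusted p = 0.0895). Mylpf, Tnni2 and Dcn followed (4.61, 4.46 and 3.93). In the other direction the genes of lowest p were Mbtps2, Adcyap1, Khnyn, Zdhhc17 and Ager, none of them called. Mbtps2, a protease that releases membrane-bound transcription factors, was called higher over 5 animals (0.80 ± 0.14) and differed by 0.33 and 0.42 in animals 3 and 4 against a mean of 1.09 in the other 3. Zdhhc17, a palmitoyl transferase, was called as well (0.58 ± 0.16), and differed by 0.11 and 0.12 in animals 3 and 4.

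Some genes were called in animals 3 and 4 and not over 5 animals, 14 of them higher and 7 lower. Gja1, the gap junction protein connexin 43 of astrocytes and many other cells, was at 11.38, 9.72, 10.35, 10.39 and 10.90 in outer layers and 10.48, 10.67, 9.08, 8.56 and 9.54 in inner layers. Animal 2 alone had the lower value in its outer layer, and the difference over 5 animals was 0.88 ± 0.35 (adjusted p = 0.118), against 1.27 and 1.83 in animals 3 and 4. Igfbp5, a growth factor binding protein, was at 10.48, 10.04, 10.03, 10.15 and 10.73 in outer layers and 10.38, 10.62, 9.17, 8.76 and 9.76 in inner layers. Cdkn1c, the cell cycle inhibitor p57, was at 9.75, 9.33, 9.44, 9.68 and 9.84 in outer layers and 9.67, 9.66, 8.42, 8.46 and 9.23 in inner layers. For Gja1, Igfbp5 and Cdkn1c the inner arrays of animals 1 and 2, with high muscle, bone and meningeal means, were the highest inner arrays. Fbln1, a matrix fibulin, and Sphk1, a sphingosine kinase, differed by 1.13 and 1.03 as the mean of animals 3 and 4 and by 0.57 ± 0.22 and 0.32 ± 0.25 over 5 animals. Among the lower genes, Kcnip1, a potassium channel partner, Etv5, an ETS factor, Dzip1l, a protein of cilia, Fhdc1 and Egr4 differed by −0.88, −0.83, −0.78, −0.76 and −0.70 in animals 3 and 4. The difference between the sets of animals was not called for any of these genes.

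**Figure D4:**
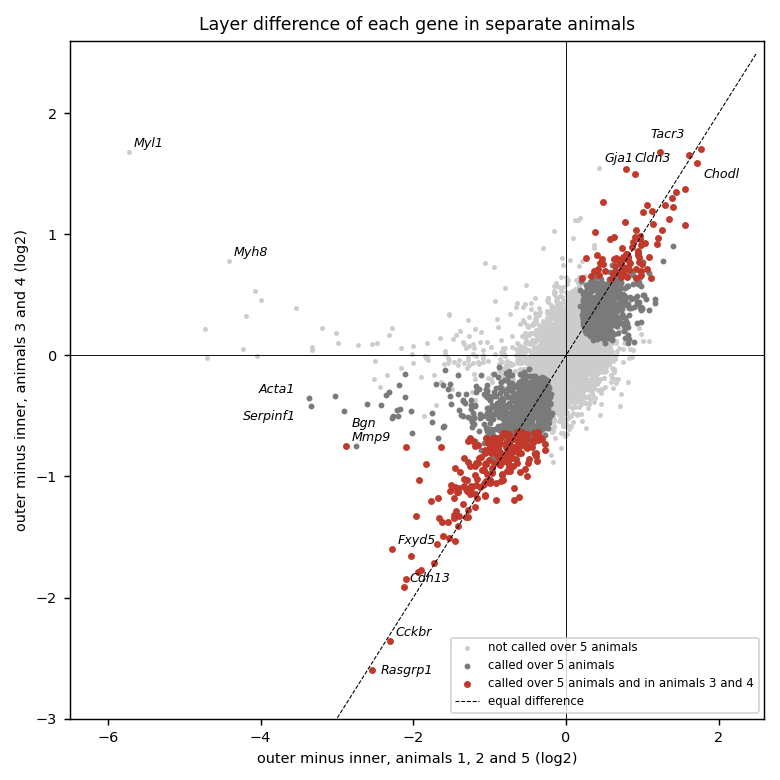
Outer minus inner difference (log2) of every gene tested, in animals 1, 2 and 5 (x axis) and in animals 3 and 4 (y axis), with the dashed line at equal differences. Among genes called in both fits (red), Rasgrp1 lies near the line (−2.54 and −2.60) and Mmp9 well off it (−2.87 and −0.75). The muscle genes Myl1 and Myh8 lie far left with values above 0 on the y axis, and Acta1 (−3.36) lies below 0 (−0.35).

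Genes of young neurons were higher in the outer layer. For scale, 9.62% of all genes were called higher and 11.5% lower. Of 8 genes of progenitors and newborn neurons tested, 7 were called higher and 1 lower, all with the same sign in animals 3 and 4. So had 795 of all 807 genes called higher and 939 of all 963 called lower, as these animals are part of the 5. The median difference was 0.85 over 5 animals and 0.68 in animals 3 and 4. Beside Igfbpl1, Insm1 and Rnd2, Neurod1, a basic helix-loop-helix factor of young neurons, differed by 0.90 ± 0.15. The other 3 called members ranged from 0.41 to 0.80. Gadd45g, a stress and growth arrest gene that is active in cells leaving the cycle, was lower (−0.87 ± 0.11). This list's median stayed between 0.41 and 0.94 under the 14 alternatives run for lists, which left out the authors' scaled table.

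Among genes of dividing cells and glia, most of the calls were lower in the outer layer, where over all genes 9.62% were called higher and 11.5% lower. Of 15 cell cycle genes, 1 was called higher (Tyms, 0.66 ± 0.12) and 8 lower, among them Top2a, which untangles DNA for mitosis (−0.96 ± 0.09), the cyclins Ccnd2 (−0.92) and Ccnd1 (−0.89), and Cdk1 (−0.86), with medians of −0.34 over 5 animals and −0.48 in animals 3 and 4. Top2a was at 6.03 ± 0.30 in outer layers and 6.99 ± 0.25 in inner layers (SD, n = 5 each). Of 8 radial glia genes, 6 were called lower and 0 higher, with medians of −0.66 and −0.59. Tnc, a matrix protein of progenitors and glia, led them (−1.22 ± 0.15), followed by Ttyh1 (−0.73), the glutamate transporter Slc1a3 (−0.72) and the Notch effector Hes1 (−0.67). Hes1 was detected on 2 of 5 outer arrays, and Vim (0.27) and Sox2 (−0.14) were not called. Of 8 astrocyte genes, 4 were called lower, with medians of −0.74 and −0.52, and these were the metallothionein Mt1 (−1.54), the glycolytic enzyme Aldoc (−1.11), Aldh1l1 (−1.11) and Clu (−0.67). Mt1 was at 9.36 ± 0.38 in outer layers and 10.90 ± 0.73 in inner layers (SD, n = 5 each). Apoe (−0.82), Slc1a2 (−0.18) and Sparcl1 (−0.16) were not called, and Gja1 had the opposite sign.

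Oligodendrocyte lineage genes differed in the same direction as those of astrocytes. Of 7 tested, 5 were called lower, with medians of −0.42 over 5 animals and −0.60 in animals 3 and 4. Pdgfra, the growth factor receptor of oligodendrocyte precursors, differed by −1.21 ± 0.12, Olig1, a factor of that lineage, by −1.11 ± 0.07, Bcas1 by −0.51 and the myelin gene Mbp by −0.42, and Cspg4 (−0.22) and Gpr17 (−0.30) were not called. Of 10 endothelial and mural cell genes, 9 were called lower, with medians of −0.63 and −0.49. All 9 had the same sign in animals 3 and 4, as had 939 of all 963 genes called lower. Egfl7 (−0.90 ± 0.12), Esam (−0.82 ± 0.08), the vessel adhesion gene Pecam1 (−0.79 ± 0.12) and the pericyte gene Rgs5 (−0.78 ± 0.13) led them, and Kcnj8 (0.05) was not called. The mean level of 13 such genes was 6.03, 5.95, 6.16, 6.08 and 6.25 on outer arrays and 6.61, 6.66, 6.47, 6.31 and 6.76 on inner arrays, which did not overlap. This was not particular to that list. Radial glia means (6.53 to 6.78 outer, 6.92 to 7.20 inner) and oligodendrocyte lineage means (6.10 to 6.41 and 6.63 to 6.81) did not overlap either. By limma 0 genes of the radial glia, astrocyte, oligodendrocyte and endothelial lists were called higher, where over all genes 9.62% were, and at an unadjusted p under 0.05 only Gja1 of these lists was higher over 5 animals (0.88 ± 0.35), a gene that was called higher in animals 3 and 4.

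Neuronal genes differed in both directions, and 9.62% of all genes were called higher and 11.5% lower. Of 12 genes of pyramidal neuron maturation, 2 were called higher and 4 lower, with a median of −0.0036. Camk2a, a kinase of mature excitatory synapses, was at 10.17, 10.69, 10.72, 10.46 and 10.62 in outer layers and 12.11, 11.87, 11.78, 12.04 and 11.90 in inner layers (−1.41 ± 0.13, adjusted p = 0.000785). Slc17a7, the vesicular glutamate transporter VGLUT1, was at 10.41, 10.56, 10.57, 11.14 and 10.98 in outer layers and 11.99, 11.83, 11.88, 12.34 and 11.71 in inner layers (−1.22 ± 0.12). In both genes all outer arrays lay below all inner arrays, as in 6.05% of all genes. Nrgn (−0.53) and Syn1 (−0.29) were also lower, whereas Slc17a6, the transporter VGLUT2, was higher (0.35 ± 0.10, and 0.10 in each of animals 3 and 4). The pyramidal neuron factor Neurod6 was higher as well (0.47 ± 0.10), and only 1 of 5 inner arrays detected it. Of 8 CA3 field genes, 0 were called higher and 4 lower, with medians of −0.38 over 5 animals and −0.30 in animals 3 and 4. These were the proteoglycan Spock1 (−1.04), the zinc finger gene St18 (−1.03), the granin Chgb (−0.85) and Cpne4 (−0.55), and the kainate receptor gene Grik4 (0.26), Nectin3 (0.23), Socs2 (0.25) and Bok (−0.21) were not called. Of 6 genes of the CA1 and CA2 fields, Lefty1 (0.78) and Amigo2 (0.74) were called higher and Cacng5 (−0.56) and Fibcd1 (−0.48) lower. Wfs1 (−0.0073) and Pou3f1 (−0.25) were not called, and the median was −0.13. Lefty1 was below detection on all inner arrays, so that its outer signal was at least 1.44-fold higher.

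Of 11 genes of GABAergic interneurons, 6 were called lower and 2 higher (over all genes 11.5% and 9.62%). Medians were −0.38 over 5 animals and −0.33 in animals 3 and 4. Npy (−0.78), Npas1 (−0.64), the serotonin receptor Htr3a (−0.64, detected on 3 of 5 outer arrays) and the vesicular GABA transporter Slc32a1 (−0.55) were lower. The higher ones were Calb2 and Nr2f2, which other cells express as well. Reln, the secreted guide of neuronal migration that Cajal-Retzius cells and some interneurons make, was at 8.76, 8.91, 8.54, 8.65 and 8.97 in outer layers and between 9.63 and 10.26 in inner layers (−1.17 ± 0.09). Reln and Calb2, both Cajal-Retzius markers, thus went opposite ways, and 6 of the 8 genes of that list were below detection on all outer arrays and 5 on all inner arrays. Of 9 early-born and deep-layer neuron genes only Tbr1 was called (−0.36), with a median of −0.14, and of 3 late-born and upper-layer genes Mef2c (−0.71) and Cux2 (−0.61) were called lower and Cux1 (−0.32) was not. Prox1, the dentate granule neuron factor, differed by −0.29 ± 0.07.

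Peptide receptors were among the leading genes in both directions. The shares called over all genes were 9.62% higher and 11.5% lower. Of 20 neuropeptide and receptor genes, 5 were called higher and 8 lower, and the median was −0.07. The sign was the same in animals 3 and 4 for 13 of 13. It was so for 795 of all 807 genes called higher and 939 of all 963 called lower. Both detected tachykinin receptors were higher in the outer layer, Tacr3 by 1.74 and Tacr1 by 0.82 ± 0.13, while Tac1, the precursor of the tachykinin substance P, was lower (−1.03 ± 0.10). Tac1 was at 4.88 ± 0.17 in outer layers and 5.91 ± 0.10 in inner layers (SD, n = 5 each), and only 1 of 5 outer arrays detected it. The somatostatin receptor Sstr1 (0.87 ± 0.20) and the neurotensin receptor Ntsr1 (0.52 ± 0.10) were higher, although Sstr1 differed by only 0.07 in animal 3. Beside Cckbr and Hcrtr1, the neuropeptide Y receptor Npy2r was lower (−1.33 ± 0.14), and Cck, the ligand of Cckbr, was not called (−0.12).

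Most calls among calcium sensors and the release machinery were lower in the outer layer, where over all genes 9.62% were called higher and 11.5% lower. Of 18 neuronal calcium-binding protein genes, 9 were called lower and Calb2 alone higher, with medians of −0.38 over 5 animals and −0.42 in animals 3 and 4. Vsnl1, which codes for visinin-like protein, was at 10.10 ± 0.12 in outer layers and 11.57 ± 0.21 in inner layers (SD, n = 5 each), a difference of −1.48 ± 0.08. Necab2 (−1.36), Ncald (−1.14) and the hippocampal sensor Hpca (−0.93) followed. Of 23 genes of synaptic vesicle release, 9 were called lower and 1 higher, with medians of −0.18 and −0.20. Sv2b, a vesicle glycoprotein (−1.21 ± 0.09), Syt13 (−1.04), the Rab effector Rph3a (−0.88) and the complexin Cplx2 (−0.49) led the lower ones, and Pclo, a scaffold of the active zone, was higher (0.31). The synaptotagmin Syt9, a leading gene that was not in this list, was also higher (1.15 ± 0.11).

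Ion channels, pumps and transmitter receptors were called in both directions, where over all genes 9.62% were called higher and 11.5% lower. Of 24 potassium channel genes, 9 were called lower and 3 higher, with medians of −0.25 and −0.29. The 3 higher ones, Kcnk1 (0.84 ± 0.10), Kcnk2 (0.61 ± 0.09) and Kcnk10 (0.53 ± 0.07), all code for 2-pore-domain leak channels, and the lower ones were led by the voltage-gated Kcna1 (−0.99 ± 0.13), Kcnf1 (−0.74), the calcium-activated Kcnma1 (−0.67) and Kcna2 (−0.61). Kcna1 was at 4.61 ± 0.21 in outer layers and 5.60 ± 0.24 in inner layers (SD, n = 5 each). Kcna1 and Kcnf1 were each detected on 1 of 5 outer arrays, so their outer levels are near background. Of 7 genes of the FXYD family and the sodium pump, 4 were called lower, which were Fxyd5, Fxyd7 and the pump subunits Atp1b2 (−0.53) and Atp1b1 (−0.50), and Fxyd6 was higher (0.30), with a median of −0.50. Of 12 glutamate and GABA receptor genes, Gabra3 (0.41) was called higher and Grik1 (−0.55) and Gria1 (−0.39) lower, with a median of −0.0048. That share of calls is near the 21.1% over all genes.

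Axon guidance genes were called in both directions, with more of the calls higher. Over all genes, 9.62% were called higher and 11.5% lower. Of 30 axon guidance genes, 10 were called higher and 4 lower, and the median was 0.25 over 5 animals and 0.23 in animals 3 and 4. The sign was the same in animals 3 and 4 for 14 of 14. It was so for 795 of all 807 genes called higher and 939 of all 963 called lower. Ephb1, an ephrin receptor, was at 11.19 ± 0.06 in outer layers and 10.27 ± 0.39 in inner layers (SD, n = 5 each), a difference of 0.92 ± 0.13. The semaphorin receptor Nrp2 (0.73) and the semaphorins Sema6d (0.59) and Sema3f (0.52) followed. Lower ones were Sema5a (−1.30 ± 0.17), the netrin receptor Unc5c (−0.71 ± 0.07), Epha5 (−0.62) and the Slit receptor Robo1 (−0.60). Sema5a was detected on 3 of 5 outer arrays. Of 14 cadherin genes, Cdh2, the neural cadherin, was called higher (0.76 ± 0.16) and Cdh13, Cdh12 (−0.57) and Pcdh10 (−0.40) lower, with a median of 0.0025. This share of calls is near the 21.1% over all genes.

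Signalling genes had members on both sides, and 9.62% of all genes were called higher and 11.5% lower. Of 12 Ras and MAP kinase regulators, 4 were called lower and 0 higher, with a median of −0.20, or −0.12 without animal 1. Beside Rasgrp1 they were Dusp6, the phosphatase of the ERK kinases, at 9.75 ± 0.08 in outer layers and 10.82 ± 0.08 in inner layers (SD, n = 5 each), Rasal1 (−0.74) and Rasgrf1 (−0.43). Of 8 immediate early genes, which neurons switch on with activity, 5 were called lower and 1 higher, with medians of −0.61 and −0.43. Egr1 was at 7.59 ± 0.22 in outer layers and 8.90 ± 0.34 in inner layers (SD, n = 5 each). Arc differed by −0.85, and Junb and Bdnf by −0.64 each, while Dusp1 was higher (0.34). Only 1 of 5 outer arrays detected Arc. Of 6 genes of the retinoic acid pathway, Crabp1 and Cyp26b1, which degrades retinoic acid (−0.84 ± 0.22), were called lower. The receptor Rxrg was called higher (0.97 ± 0.12), and Stra6 (−0.36), Rarg (−0.17) and Rxrb (0.10) were not called. Cyp26b1 was detected on 1 of 5 outer arrays and Rxrg on 3 of 5 inner arrays. That list's median was −0.26, or −0.16 without animal 2.

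Of 15 Wnt pathway genes, 3 were called higher and 5 lower (over all genes 9.62% and 11.5%), with a median of −0.05. The receptors Fzd7 (1.11 ± 0.10) and Fzd8 (0.63 ± 0.13) and the secreted Dkk3 (0.37) were higher, and the ligands Wnt5a (−0.77 ± 0.13) and Wnt7b (−0.61), the factor Tcf7l2 (−0.76) and the secreted enhancer Rspo3 (−0.51) were lower. Fzd7 was at 9.89, 9.97, 10.08, 10.46 and 10.27 in outer layers, against 8.96, 8.56, 9.04, 9.57 and 8.98 in inner layers. Its outer arrays all lay above its inner arrays, as in 3.78% of all genes. Of 12 Notch pathway genes, 1 was called higher (Hes6, 0.41) and 5 lower, led by Dlk1 (−1.52 over 5 animals and −0.50 in animals 3 and 4), with a median of −0.24. Of 17 genes of the BMP and TGF-beta pathway, 3 were called in each direction, with a median of −0.06. The receptors Tgfbr1 (0.66) and Acvr2a (0.53) and the inhibitor Id2 (0.49) were higher, and Tgfbr2 (−1.05 over 5 animals and −0.34 in animals 3 and 4), Id3 (−0.61) and Id1 (−0.54) were lower.

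Tuba4a and Dclk3 led the calls among neuronal microtubule genes. Of 30 neuronal microtubule protein genes, the list to which the doublecortin relatives belong, 4 were called lower and 1 higher, with a median of −0.04. Tuba4a (−0.91 ± 0.09), Dclk3 (−0.84 ± 0.10) and the kinesins Kif1a (−0.38) and Kif5c (−0.28) were lower and Stmn1 was higher (0.66 ± 0.12), while Dclk1 (−0.01), Dclk2 (0.05), Tubb3 (−0.01) and the doublecortin partner Pafah1b1 (−0.03) were not called. Of 27 proteasome subunit genes 1 was called (Psmd11, 0.47), and the median was 0.07. Of 16 cholesterol synthesis genes, Nsdhl (0.43) was called higher and Dhcr7 (−0.41) lower, with a median of −0.04. Over all genes 21.1% were called in either direction. Of 16 glycolysis genes, 8 were called lower and 0 higher, with a median of −0.28 over 5 animals and −0.25 in animals 3 and 4. Beside Aldoc, which is also an astrocyte gene, Pfkp (−0.91 ± 0.08), the neuronal enolase Eno2 (−0.86 ± 0.07) and Aldoa (−0.65) led them, and Gapdh (−0.20), Pkm (−0.08) and Ldha (−0.06) were not called. Of 6 antigen presentation and interferon genes, Ifitm2 (0.73) was called higher and Ifitm3 (−1.24) and B2m (−0.85) lower, with a median of 0.02. Of 37 lists with a median, 25 kept its sign in all 14 alternatives run for lists, which left out the authors' scaled table. The other 12, all with medians between −0.26 and 0.02, did not.

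**Figure D5:**
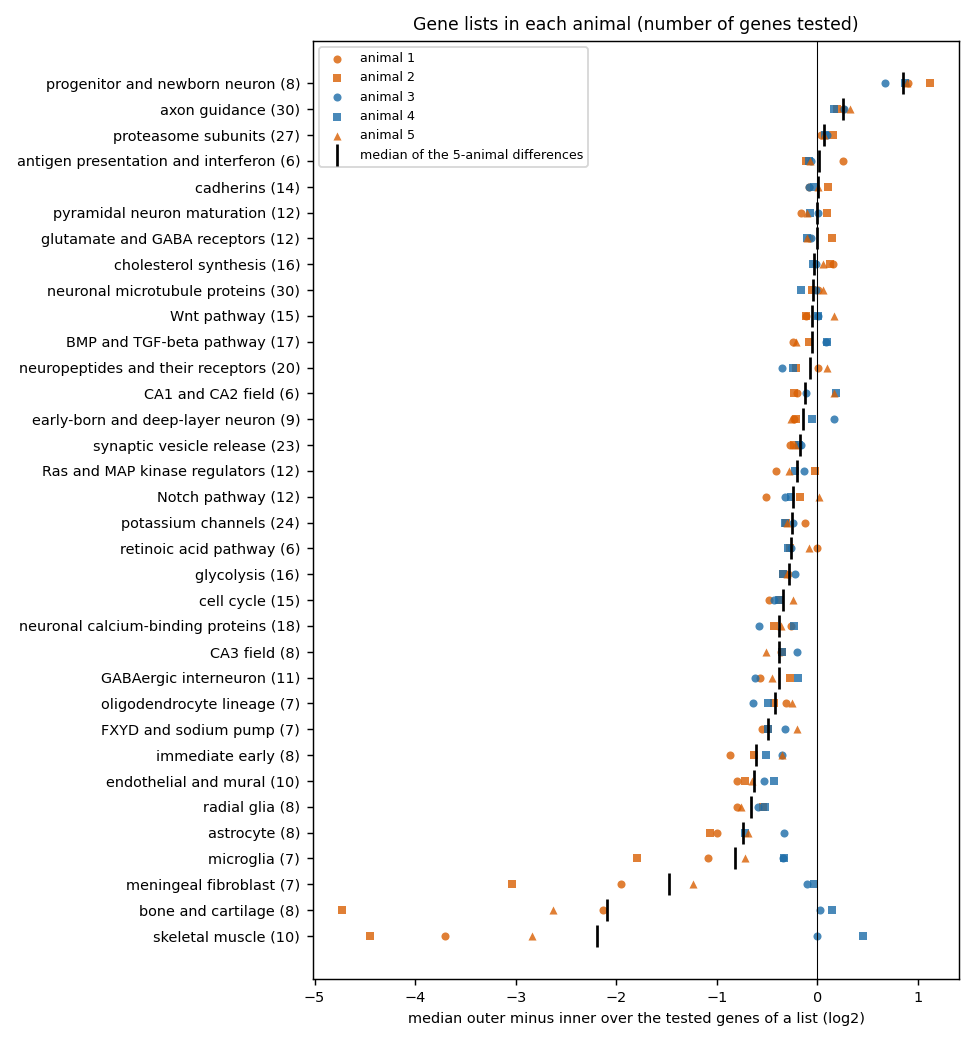
Median outer minus inner difference (log2) over the tested genes of each list, in each animal (orange for animals 1, 2 and 5, blue for animals 3 and 4) and over 5 animals (black bar), with the number of genes tested in brackets. Progenitor and newborn neuron genes lie above 0 in all 5 animals, endothelial, glial and calcium-binding lists lie below 0 in all 5, and the muscle, bone and meningeal lists lie between −0.10 and 0.45 in animals 3 and 4 and at −1.24 or lower in the other animals.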

How the data were processed

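The authors deposited log2 signals of 26821 entries on 15 arrays, of which 25697 carried a probe. The submitters' processing notes name limma; its role and version, the bead summary and the annotation build are not given in the sources used here. The deposited log2 values differed in scale between arrays. They were therefore turned back to linear signals, corrected for background (normexp) and quantile-normalized over all 15 arrays. This used neqc (offset 16) from limma 3.58.1, run in R 4.3.3. Negative controls were inferred: of the 1124 entries without a probe, 8 bright ones were set aside and the other 1116 were taken as negative controls. The fraction of negative controls reaching a signal gave its detection p-value, and probes under 0.01 on at least 5 of 15 arrays were kept (11998, 46.7%). For each of 8392 genes the brightest kept probe on average was used, 2147 genes having more than 1, and the 702 kept probes that have no symbol entered the fit only. In the platform annotation 23978 probes had 1 symbol, 0 several and 1719 none, and 23962 were matched by gene identifier to RefSeq.

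A second deposited table holds a score for each array. On 7 arrays it was found to be the log2 signal minus the array's median, divided by its SD. On the other 8, both layers of animals 1 to 4, it departed from this by an amount that varied between entries. The SD of that departure over entries was 0.101 on the inner and 0.110 on the outer arrays, so it can alter the layer difference of single genes. The table served as an alternative for calls and single genes but not for list medians.

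Differences were fitted two-sided with lmFit and eBayes, with the animal as a block and Benjamini-Hochberg adjustment over the 11998 probes. The series text states that both layers came from the same animals. Deviations of same-numbered layers from their group means correlated across genes with r = 0.555, 0.256, 0.385, 0.395 and 0.772 for animals 1 to 5. The fits were tested on simulated data, where the fits to 2 and to 3 animals gave more false calls than their nominal rate. The number of arrays limits the precision.

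The comparison, the 41 gene lists (21 of cell types, 20 of functions) and the tests were chosen with earlier results of these data known. Genes named are the 14 of largest difference in each direction called over 5 animals and in animals 3 and 4 with 1 sign in 5 of 5 animals, the 10 largest called over 5 animals with under 25% of the size in animals 3 and 4, the 5 largest in each direction called only in animals 3 and 4, the 5 of lowest p in each direction for the difference between sets, Dcx, and members of the lists. Alternatives changed the normalization, the table, the filter, the block, the variance model, the probe rule and the animals.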

Additional observations from a re-analysis of the deposited data

Results flagged for a closer look

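In groups of 5 values, 10 of the 177 groups looked at held a value that lay apart from the other 4 by Dixon's criterion (0.71), and chance marks about 1 in 20 groups. Ptx3 was lowest in the outer layer of animal 5 (5.17, others 6.14 to 6.52). Insm1 was lowest in the outer layer of animal 2 (9.15, others 9.48 to 9.58) and Ssbp2 in the inner layer of animal 1 (8.17, others 8.56 to 8.67). Fxyd5 had its largest layer difference in animal 2 (−4.11, others −1.80 to −0.91). Fxyd7 was highest in the outer layer of animal 3 (5.13), where it was detected on 2 of 5 outer arrays, Gpr83 lowest in the outer layer of animal 1 (4.25), and Cpne6 lowest in the outer layer of animal 5 (6.42). Bgn was highest in the outer layer of animal 1 (7.92, others 5.92 to 6.34), the outer array with the highest bone and cartilage mean (5.81). Tnni2 was highest in the outer layer of animal 4 (5.32, others 4.26 to 4.50), the outer array with the highest muscle mean (5.52). Khnyn was lowest in the inner layer of animal 2 (4.52, others 5.62 to 5.87).

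The layer difference itself differed between animals 3 and 4 and animals 1, 2 and 5 for Myl1 (by 7.41, with differences of 1.68 and −5.73) and Myh8 (by 5.20, with 0.78 and −4.42), by limma's test of that contrast. Neither was called without animal 1, nor Myh8 without animal 3 or animal 4. Both are muscle genes, and muscle transcripts chose the sets.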

How the results depend on the processing

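The number of calls rests on the normalization. Over 5 animals 1770 genes were called, against 103 with arrays shifted to a common median and 108 in the deposited log2 signals with no further step, and all 103 and 94 of the 108 were called in the same direction among the 1770. Without the animal as a block 705 were called, all among the 1770, with 33.0% higher, against 45.6% with the block. Leaving out each animal in turn gave 990 to 1279, lowest without animal 1. Among the 5-animal values of the 28 leading genes under the alternatives, 405 stayed called and 15, of Ptx3, Nr2f2, Mb21d2, Syt9, Gpr83, Fxyd5 and Mmp9, did not. Their calls in animals 3 and 4, which also chose them, were not rechecked under the alternatives. For the 10 named genes of under 25% in animals 3 and 4, 73 of these values stayed called and 76 did not. With no further step the median over all genes was 0.145, and 0.484 in animals 3 and 4, where it was 0.165 with median scaling.

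The 323 calls in animals 3 and 4 (30.7% higher) became 1118 (43.1%) with quantile normalization alone, 3447 (89.8%) with median scaling, 7720 (99.0%) with no further step, 3508 (70.0%) in the authors' scaled table, 185 with no filter, 57 with normalization over the 10 KO arrays, 1346 with a trended robust variance and 129 without the block. No animal can be left out of that fit, since 1 pair leaves no spread. The 877 calls in animals 1, 2 and 5 (34.5% higher) became 1412 with quantile normalization alone, 4 with median scaling, 89 (5.62% higher) with no further step, 432 in the authors' scaled table, 514 with no filter, 1669 with a trended robust variance and 144 without the block. Leaving out an animal gave 105 to 519, lowest without animal 1. The 2 calls for the difference between the sets became 12 with quantile normalization alone, 34 with no further step, 8 in the authors' scaled table and 29 with a trended robust variance. They became 1 with median scaling, no filter, KO-only normalization or probe means, and 1 to 17 when an animal was left out, with neither Myl1 nor Myh8 among the 2 called without animal 1. Without the block limma called 0 for that difference, with 228 at an unadjusted p under 0.05.

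With no further step, negative differences in animals 3 and 4 turned to 0.0095 for Etv5, 0.019 for Dzip1l, 0.051 for Fhdc1 and 0.053 for Egr4. The negative differences between the sets turned to 0.30 for Mbtps2, 0.18 for Adcyap1, 0.18 for Khnyn, 0.15 for Zdhhc17 and 0.24 for Ager. All lie under that setting's medians over all genes, 0.484 and 0.562. The retinoic acid median turned to 0.039 with no filter, where more genes are tested. The cause of the other changes was not tested. Signals near background limit the size of a difference.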
